A study of Mus musculus with 9 samples.

Results

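The genes described here build and supply the DNA replication machinery of S phase, the part of the cell cycle in which the genome is copied. The list holds 46 mouse genes, chosen by name for their role in replication, of 18193 genes that the arrays could name. Each gene is represented by the probe set (a group of short probes for 1 transcript) with the highest mean over all 9 arrays. Of the 46, 43 entered the test between groups. Tyms and Ccne2 stayed under the filter on dim probe sets, a log2 value of 2.658, and no probe set named Chaf1a alone.

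RNA came from CD11b+ splenocytes of C57BL/6 mice, obtained from adherent spleen cells with magnetic beads against the integrin CD11b, and was hybridised to Affymetrix MOE430 arrays. The HighThreat group, called threat here, holds 6 animals that met social threat repeatedly, each on an array of its own. The LowThreat group, called control, holds 6 animals kept under non-threatening conditions, whose RNA was pooled by 2 into 3 arrays. Both groups share the strain and the cell isolation, and neither sex nor age is given in the sources used here. A control array averages 2 animals where a threat array holds 1, and no batch is labelled.

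Replication starts in G1, when the origin recognition complex, Cdc6 and Cdt1 load the ring of Mcm2 to Mcm7 onto DNA, a step called licensing. Cdc45 and the GINS complex then join the ring to form the active helicase, primase and the polymerases copy both strands, and the sliding clamp Pcna, placed by the Rfc loader, holds the polymerases on DNA. Many of these genes are known targets of E2F transcription factors, which cyclin E kinase helps to release at the start of S phase. Mature granulocytes and monocytes in the spleen mostly do not divide, whereas their precursors and activated lymphocytes do.

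The promoters of 4 members are shown because these genes had the largest rise (Rrm2), the largest fall (Cdt1), and the called rise and the largest fall within the Mcm ring (Mcm5 and Mcm6). Within the ring only called members with a match to the E2F letters given below could be chosen. The windows run from 250 bases before to 50 bases after the RefSeq start of the gene, on the strand of the gene, build GRCm38.p6. They lie at chr12:24708004-24708303 on the plus strand for Rrm2, chr8:122567765-122568064 on the plus strand for Cdt1, chr8:75109259-75109558 on the plus strand for Mcm5 and chr1:128359656-128359955 on the minus strand for Mcm6. Capitals mark matches to the E2F letters TTTCGCGC or TTTGGCGC and to the CCAAT box, on either strand.
Rrm2: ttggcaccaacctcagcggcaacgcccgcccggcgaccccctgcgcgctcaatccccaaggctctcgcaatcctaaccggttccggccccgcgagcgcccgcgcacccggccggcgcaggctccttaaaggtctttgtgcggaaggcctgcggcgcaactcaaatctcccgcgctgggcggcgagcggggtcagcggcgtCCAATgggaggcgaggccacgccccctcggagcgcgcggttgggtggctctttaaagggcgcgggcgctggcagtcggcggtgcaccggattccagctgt
Cdt1: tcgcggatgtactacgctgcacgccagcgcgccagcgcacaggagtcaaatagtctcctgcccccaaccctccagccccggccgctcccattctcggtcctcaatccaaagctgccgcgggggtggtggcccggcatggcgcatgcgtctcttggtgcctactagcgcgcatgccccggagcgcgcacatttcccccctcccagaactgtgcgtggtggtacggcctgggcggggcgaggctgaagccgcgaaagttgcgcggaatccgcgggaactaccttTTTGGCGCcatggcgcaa
Mcm5: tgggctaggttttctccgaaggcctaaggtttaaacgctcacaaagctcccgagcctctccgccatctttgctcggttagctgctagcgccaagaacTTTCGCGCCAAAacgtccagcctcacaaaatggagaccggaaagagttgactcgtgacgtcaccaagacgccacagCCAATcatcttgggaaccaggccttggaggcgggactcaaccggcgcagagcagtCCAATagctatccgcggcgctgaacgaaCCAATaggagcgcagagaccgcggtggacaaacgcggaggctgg
Mcm6: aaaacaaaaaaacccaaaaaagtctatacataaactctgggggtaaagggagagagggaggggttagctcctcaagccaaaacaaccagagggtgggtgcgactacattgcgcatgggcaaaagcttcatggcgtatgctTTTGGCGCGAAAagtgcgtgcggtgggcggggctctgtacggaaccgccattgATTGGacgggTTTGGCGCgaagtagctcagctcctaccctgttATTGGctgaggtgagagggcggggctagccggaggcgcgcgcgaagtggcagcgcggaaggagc

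An E2F match was found in the windows of 13 of the 39 members for which RefSeq windows were at hand (33.3%), and in 0.929% of all 27025 genes with such windows. In the Mcm5 window the letters TTTCGCGC at bases 98 to 105, counted from the 5′ end of the window, overlap the reverse complement of TTTGGCGC at bases 102 to 109. The Mcm6 window has a similar overlapping match at bases 141 to 152 and another at bases 204 to 211, and the Cdt1 window has a match at bases 283 to 290. The Rrm2 window holds none of these letters and has a CCAAT box at bases 201 to 205. Members with an E2F match included 3 that rose in threat animals (Mcm5, Pole2 and E2f2), 3 that fell (Cdt1, Mcm3 and Mcm6) and 7 that did not pass the test. CCAAT was present in 24 of the 39 members against 41.1% of all genes, the SP1 box GGGCGG in 31 against 38.2%, and the CHR element TTTGAA in 6 against 20.2%. These counts describe letters in a window and carry no test.

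The replication genes did not move as a block. In threat animals 12 of the 43 tested members rose and 10 fell, and 21 did not pass the test (limma, Benjamini-Hochberg adjusted p under 0.05 over all 13078 genes tested). The 22 called members are 51.2% of those tested, next to 45.8% of all genes, of which 23.8% rose and 22.0% fell, so the share lies near the background. The 12 include Cdc6 and Pole2, whose control means were under the filter value, so that they entered the test only through higher threat values. The median difference was 0.10 on the log2 scale, against 0.029 over all genes, and the median absolute difference was 0.24, against 0.15. Rrm2, Tk1 and Cdc45 rose by at least 1.5-fold, and Cdt1 and Mcm6 fell by as much. These 5 compare with 11.2% of all genes called at that size.

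**Figure D1:**
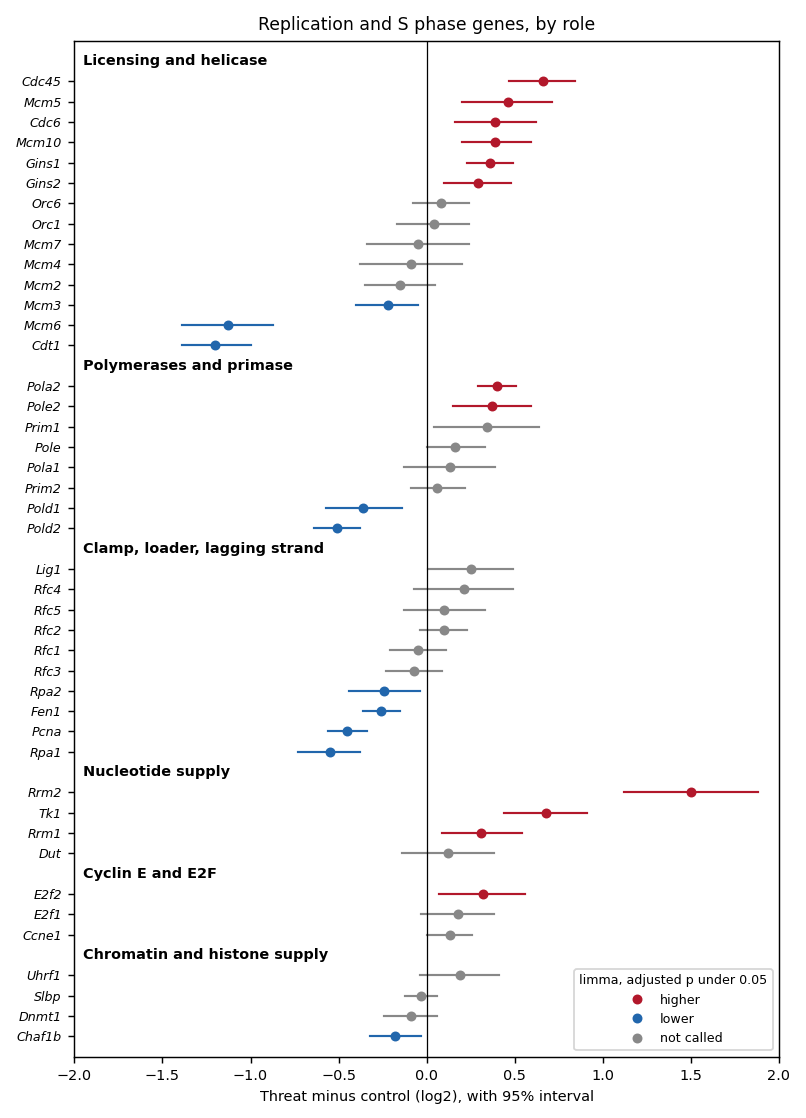
Difference between threat and control (log2, horizontal axis) for the 43 tested members, grouped by role, with limma's 95% interval as a line and the call as colour. Calls in both directions stand side by side in the licensing and polymerase groups, whereas the 3 called genes of nucleotide supply lie above 0 and the 4 called genes of the clamp group below it.

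The split depended on scaling and on single arrays. With each array centred on its median, 15 rose and 7 fell. Without control pool 1-2, 12 rose and 6 fell. When a difference had to exceed 1.2-fold (limma's treat test), 3 rose and 5 fell, and these 8 members (Cdc45, Rrm2, Tk1, Cdt1, Mcm6, Pold2, Pcna and Rpa1) were called in each alternative that tested them. In bulk RNA, fewer cells of a type and less RNA per cell cannot be told apart, which holds for every difference below.

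Licensing and helicase genes went both ways, with 6 of 14 higher, 3 lower and a median of 0.06, where 1 of the 6, Cdc6, was tested only through its threat values. The largest change was a fall of Cdt1, the loading factor that is active only in G1. Cdt1 read 7.80, 7.66 and 7.79 in the control pools and from 6.28 to 6.69 in the threat animals, with a median of 6.63. All threat values lay below all pools. The fall was 1.2 on the log2 scale (SE 0.0895, adjusted p = 3.18e-07), a 2.29-fold decrease.

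Mcm6, a subunit of the helicase ring, fell almost as far. Its control values were 7.31, 7.13 and 7.18, and its threat values ran from 5.76 to 6.36 with a median of 6.12. The groups did not overlap, and the difference was -1.13 (SE 0.119, adjusted p = 6.63e-06), or 2.19-fold lower.

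The other 5 subunits of the ring had 1 rise, 1 smaller fall and 3 differences that did not pass. Mcm5 rose by 0.46 (SE 0.116, adjusted p = 0.00614), from 5.96, 5.85 and 5.92 in the control pools to a range of 6.07 to 6.64 and a median of 6.47 in threat animals. Even the lowest threat value of Mcm5 lay above all 3 pools. The call was lost where specific probe sets were preferred, which takes the second probe set of Mcm5 (difference 0.32, adjusted p = 0.0731, range 2.27e-05 to 0.0731 over 22 alternatives). Mcm3 fell by 0.22 (SE 0.0792, adjusted p = 0.0351), with overlapping groups, from a mean of 5.59 ± 0.166 (SD, n = 3) to 5.36 ± 0.108 (SD, n = 6). The call of Mcm3 was lost in 11 of 22 alternatives, with adjusted p from 0.00695 to 0.19 over the 22. Among the 11 were each omission of control pool 1-2 or 3-4 (adjusted p = 0.188 and 0.103). Each omission of threat animal 3, 5 or 6 also lost it (adjusted p = 0.0651, 0.0521 and 0.0645). Mcm2 read 6.06, 6.00 and 5.94 in the pools and from 5.57 to 6.04 in threat animals, with a median of 5.89, and did not pass (difference -0.15, 95% interval -0.35 to 0.05). Mcm4 differed by -0.09 (-0.38 to 0.20) and Mcm7 by -0.05 (-0.34 to 0.24), and neither passed. The 6 subunits of 1 ring thus had differences from -1.13 to 0.46, and whether these differ from each other was not tested.

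Of the factors that turn the loaded ring into a moving helicase, Cdc45, Gins1, Gins2 and Mcm10 rose, while Gins4, Cdc7 and Dbf4, outside the list, differed by -0.03, -0.08 and 0.12 and did not pass. Gins3 and Ticrr, also outside it, rose by 0.16 and 0.27, and these 5 genes were picked out after their values were seen. Cdc45 read 3.97, 3.89 and 3.69 in the pools and from 4.28 to 4.64 in threat animals, with a median of 4.55. All 6 animals lay above all pools, and the rise was 0.66 (SE 0.0854, adjusted p = 3.91e-05), or 1.58-fold. Gins1 and Gins2, subunits of GINS, both rose. Gins1 was higher by 0.36 with an SE of 0.0603 (adjusted p = 0.000341), and Gins2 by 0.29 with an SE of 0.088 (adjusted p = 0.0164). Mcm10, which acts when the helicase is switched on, rose by 0.39 (SE 0.0896, adjusted p = 0.00293). Second probe sets of Cdc45 and Mcm10 differed by -0.02 and -0.10 and were not called. The call of Gins2 was lost in 3 of 22 alternatives, with adjusted p from 0.00272 to 0.0953 over the 22. Among the 3 were the omissions of control pool 3-4 and of pool 5-6 (adjusted p = 0.0953 and 0.0607).

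Among the factors that load the ring, Cdc6 rose by 0.39 (SE 0.107, adjusted p = 0.00926), from 2.57, 2.34 and 2.67 to a range of 2.67 to 3.18. Its control mean of 2.53 lay under the filter value, so it was tested only because the threat values were higher. Without control pool 3-4 it did not pass (adjusted p = 0.0596, the highest of 21 alternatives, of which the lowest was 0.00155). The origin recognition subunits Orc1 and Orc6 differed by 0.04 (95% interval -0.17 to 0.24) and 0.08 (-0.08 to 0.24) and did not pass. Outside the list, Orc3 rose by 0.20 (adjusted p = 0.0163) and Orc4 differed by -0.33 (adjusted p = 0.00121). Orc2 differed by -0.09 and did not pass. Orc2, Orc3 and Orc4 were picked out after their values were seen.

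**Figure D2:**
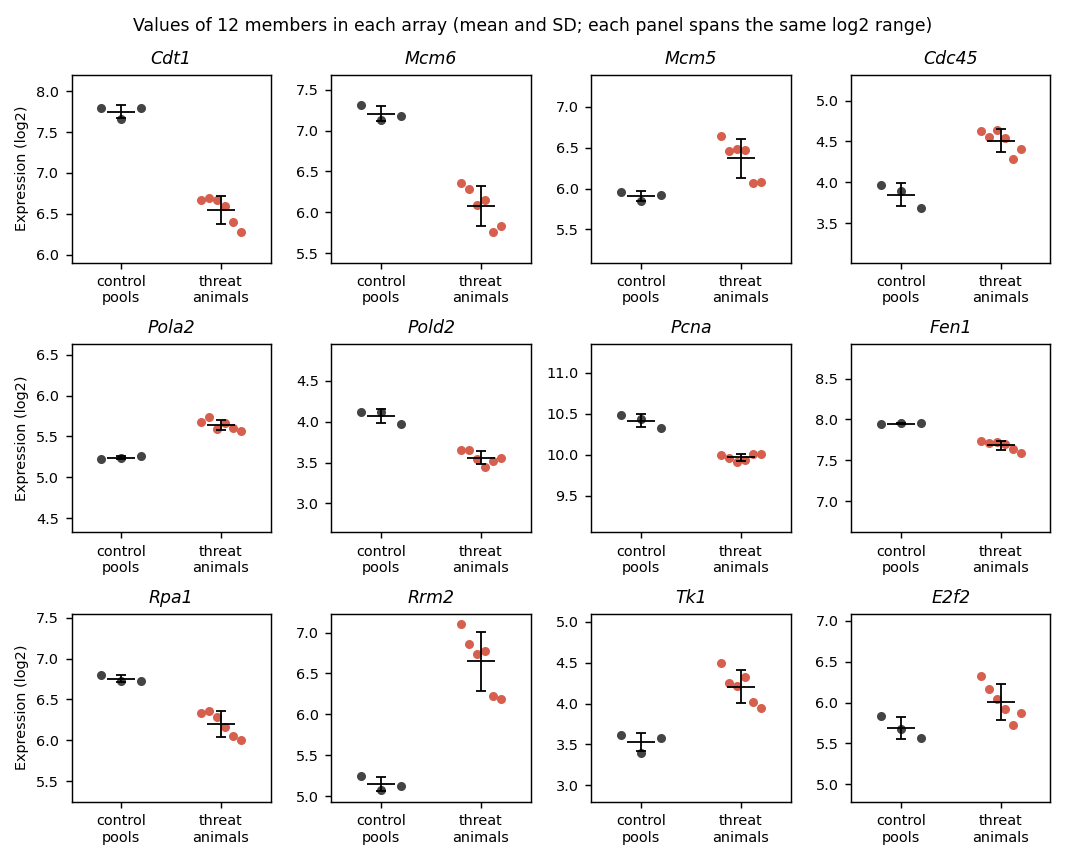
Expression (log2, vertical axis) of 12 members in the 3 control pools and the 6 threat animals, with each point 1 array, placed by its number in the labels, and the bar the mean and SD. Every panel spans the same log2 range, so that the 6.28 to 6.69 of Cdt1 in threat animals, below all pools, can be set against the 6.19 to 7.10 of Rrm2, above all pools.

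Among the 8 polymerase and primase genes, 2 rose, 2 fell and the median was 0.15, where 1 of the rises, that of Pole2, was tested only through its threat values. Pola2, the accessory subunit of polymerase alpha, which starts each new strand, rose from 5.22, 5.24 and 5.26 to a range of 5.57 to 5.74 with a median of 5.63. All threat values were above all pools, and the rise was 0.40 (SE 0.0505, adjusted p = 3.13e-05). Its call was lost with the most variable probe set of the gene (difference 0.31, adjusted p = 0.0737, range 1.04e-05 to 0.0737 over 22 alternatives). Pole2, the second subunit of the leading strand polymerase epsilon, rose by 0.37 (SE 0.1, adjusted p = 0.00936), again from a control mean under the filter value (2.65), and did not pass without control pool 5-6 (adjusted p = 0.0595, range 0.00534 to 0.0595 over 20 alternatives).

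Pold1 and Pold2, subunits of polymerase delta, which copies the lagging strand, both fell. The other subunits lie outside the list and did not fall with them. Pold4 rose by 0.28 (adjusted p = 0.00698), and Pold3 differed by -0.05 and did not pass. Both were picked out after their values were seen. Pold2 read 4.12, 4.12 and 3.97 in the pools and from 3.44 to 3.65 in threat animals, with a median of 3.54. The groups did not overlap, and Pold2 differed by -0.51 (SE 0.0597, adjusted p = 1.49e-05). The catalytic subunit Pold1 fell by 0.36 (SE 0.0974, adjusted p = 0.00972), from 5.38, 4.97 and 4.92 to between 4.58 and 4.88. Pool 1-2 stood highest for Pold1, and without it the difference was -0.21 and did not pass (adjusted p = 0.0524, range 0.0042 to 0.0847 over 22 alternatives). The call of Pold1 was lost in 2 of the 22.

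The catalytic subunits Pola1 and Pole and the primase subunits Prim1 and Prim2 did not pass, with differences of 0.13, 0.16, 0.34 and 0.06. Prim1 ran from 3.63 to 4.06 in pools and from 3.81 to 4.45 in threat animals, and was called higher without control pool 5-6, threat animal 5 or threat animal 6 (adjusted p = 0.022, 0.0195 and 0.035, range 0.00364 to 0.228 over 22 alternatives). Pole was called higher without threat animal 6 (adjusted p = 0.0154, range 0.0154 to 0.291 over 21 alternatives).

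Clamp and lagging strand genes held 4 falls and no rise among 10, where 22.0% of all genes fell and 23.8% rose. That direction depended on the setting. With the most variable probe set of each gene 3 rose and 3 fell, and without threat animal 6, 2 rose and 3 fell. Pcna, the sliding clamp itself and a common marker of S phase, read 10.48, 10.44 and 10.33 in the pools and from 9.91 to 10.01 in threat animals, with a median of 9.98. The 6 animals lay close together and below every pool. Pcna fell by 0.45 (SE 0.0498, adjusted p = 1.04e-05), a 1.36-fold decrease.

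Rpa1, the large subunit of the protein that coats single-stranded DNA, read 6.80, 6.73 and 6.73 in the pools and from 6.00 to 6.36 in threat animals, with a median of 6.23. It differed by -0.55 (SE 0.0803, adjusted p = 9.93e-05), without overlap between the groups. Fen1, the nuclease that trims Okazaki fragments, read 7.94, 7.95 and 7.95 in the pools and from 7.59 to 7.74 in threat animals, with a median of 7.71 and no overlap, a fall of 0.26 (SE 0.0478, adjusted p = 0.000681). Rpa2, the partner of Rpa1, fell by 0.24 (SE 0.0916, adjusted p = 0.0485). That call was lost in 17 of 22 alternatives, among them each omission of a control pool and of threat animal 2, 3, 4, 5 or 6, with adjusted p from 0.0126 to 0.171 over the 22.

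The clamp loader genes Rfc1 to Rfc5 and the ligase Lig1 did not pass, with differences from -0.07 for Rfc3 to 0.25 for Lig1. Without threat animal 6, Rfc4 and Lig1 were called higher (adjusted p = 0.0309 and 0.0256), within ranges of 0.0245 to 0.645 and 0.0103 to 0.227 over 22 alternatives. Loader genes also depended on the probe set, as described further on.

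Nucleotide supply held the largest rise of the list. Rrm2, the S phase subunit of ribonucleotide reductase, which makes deoxynucleotides, read 5.24, 5.08 and 5.12 in the pools and 7.10, 6.86, 6.74, 6.77, 6.22 and 6.19 in threat animals 1 to 6. The lowest threat value lay about as far above the pools as the threat animals lay apart from each other. Rrm2 rose by 1.5 (SE 0.173, adjusted p = 1.47e-05), or 2.82-fold. Tk1, the thymidine kinase of dividing cells, read 3.61, 3.40 and 3.58 in the pools and from 3.94 to 4.5 in threat animals, with a median of 4.23. Its groups did not overlap either, and it rose by 0.68 (SE 0.106, adjusted p = 0.000191).

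Rrm1, the other reductase subunit, rose by 0.31 (SE 0.103, adjusted p = 0.0257), from 5.81, 5.77 and 5.61 to a range of 5.69 to 6.21, with overlap. The call of Rrm1 was lost without control pool 3-4 or 5-6 (adjusted p = 0.0518 and 0.119) and without threat animal 3 or 4 (0.0504 and 0.0509), within 0.000219 to 0.119 over 22 alternatives. Dut, which keeps uracil out of DNA, differed by 0.12 (95% interval -0.14 to 0.38) and did not pass. Tyms, which makes thymidylate, read 1.94, 1.70 and 1.58 in the pools and from 1.63 to 2.04 in threat animals, all under the filter value. A further probe set lists Tyms with its pseudogene and was not used.

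Of the regulators that open S phase, E2f2 rose by 0.32 (SE 0.113, adjusted p = 0.037), from 5.83, 5.68 and 5.56 in the pools to a range of 5.72 to 6.32 and a median of 5.98, with overlap. Its call was lost in 8 of 22 alternatives, with adjusted p from 0.0016 to 0.161 over the 22. Among the 8 were each omission of control pool 3-4 or 5-6 (adjusted p = 0.089 and 0.161). Each omission of threat animal 1, 2 or 3 also lost it (0.0504, 0.0685 and 0.0616). E2f1 read 3.64, 4.09 and 3.69 in the pools and from 3.9 to 4.14 in threat animals, with a median of 3.94, and differed by 0.18 (95% interval -0.03 to 0.38). E2f1 did not pass, but was called without control pool 3-4 (adjusted p = 0.00444, range 0.00444 to 0.507 over 22 alternatives). Cyclin E1, encoded by Ccne1, read 4.45, 4.43 and 4.23 in the pools and from 4.40 to 4.58 in threat animals, with a median of 4.5, and did not pass (difference 0.13, adjusted p = 0.0972). Ccne2, untested, ran from 1.98 to 2.50 in the pools and from 2.27 to 3.20 in threat animals.

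The 4 tested chromatin genes of S phase differed by -0.18 to 0.19. Chaf1b, a subunit of the histone chaperone CAF-1, fell by 0.18 (SE 0.0667, adjusted p = 0.0478), from 4.62, 4.5 and 4.5 in the pools to between 4.15 and 4.46, with a median of 4.41 and no overlap. Its call was lost in 17 of 22 alternatives, among them each omission of a control pool and of threat animal 1, 2, 4, 5 or 6, with adjusted p from 0.0279 to 0.188 over the 22. Uhrf1, which guides the maintenance of DNA methylation, read 4.42, 4.51 and 4.27 in the pools and from 4.40 to 4.94 in threat animals, with a median of 4.54. The maintenance methyltransferase Dnmt1 read 6.24, 6.37 and 6.24 in the pools and from 6.02 to 6.31 in threat animals, with a median of 6.19. Neither passed, with differences of 0.19 (95% interval -0.04 to 0.41) and -0.09 (-0.24 to 0.06). Slbp, which binds the ends of histone messages, read 7.81, 7.75 and 7.74 in the pools and from 7.71 to 7.76 in threat animals, with a median of 7.75. Its difference was -0.03 (95% interval -0.12 to 0.06).

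Of the 21 tested members that did not pass, 20 had a 95% interval within 1.5-fold in both directions. The exception was Prim1, whose interval ran from 0.04 to 0.64. The groups did not overlap in 16 of the 43 members, 8 with threat above and 8 with threat below. Of all genes 41.8% did not overlap, 21.5% with threat above and 20.3% with threat below.

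Several members are covered by more than 1 probe set, which gives a further measurement of the same RNA on the same arrays. Of 30 members with several probe sets above the filter, 7 had all of them called in 1 direction, 13 had called and uncalled ones, 10 had none called, and no member had calls in both directions. The largest changes recurred in each probe set above the filter: 1.5, 1.25 and 1.49 for Rrm2, -1.2 and -1.14 for Cdt1, and -1.13 and -1.21 for Mcm6. Fen1 differed by -0.26 and -0.58, Rpa1 by -0.55 and -0.43, and Rrm1 by 0.31 and 0.39, all called. Pcna, Tk1 and Pold2 have 1 probe set each.

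Other members depended on the choice. Besides those of Cdc45 and Mcm10, the second probe sets of Mcm5 and Pola2 were not called, at 0.32 and 0.31. Nor were those of Pold1 and E2f2, at -0.20 and 0.14. The other probe sets of Mcm3 were not called either, at -0.17, -0.12, -0.06 and -0.01. For Rpa2 neither probe set was called when adjusted over probe sets, at -0.24 and -0.17. For Rfc2, Rfc3 and Rfc4 the brighter probe set was not called, and the dimmer rose by 0.36, 0.36 and 0.32. The dimmer probe sets of E2f1 and Ccne1 rose by 0.27 each, whereas a second probe set of Slbp fell by 0.47. In 18 of the 43 tested members the probe set used has a suffix (_s, _x or _a) by which the manufacturer marks sets that can match several transcripts.

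**Figure D3:**
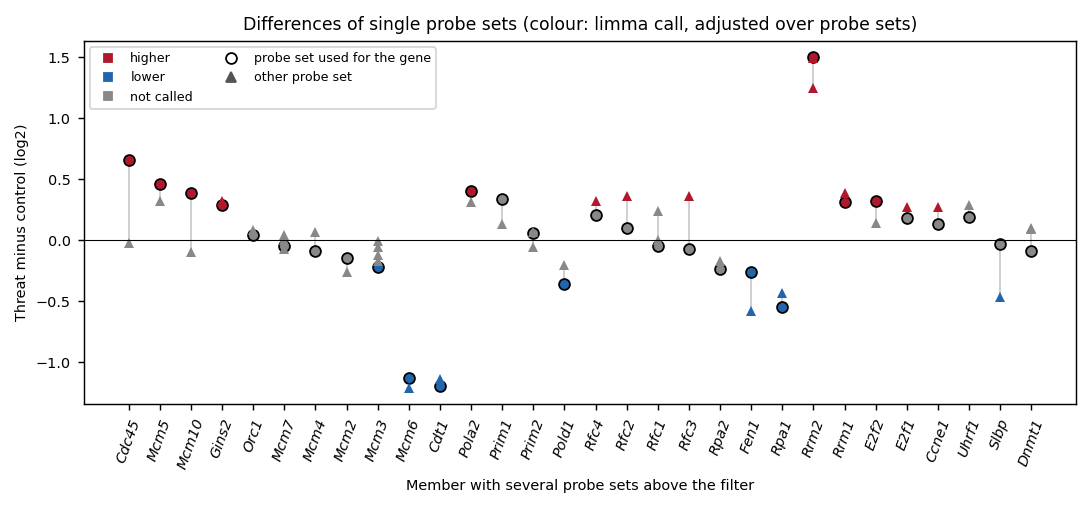
Difference between threat and control (log2, vertical axis) for each probe set above the filter, in the 30 members that have several, with circles for the probe set used, triangles for others and colour for limma's call adjusted over probe sets. Rrm2, Cdt1 and Mcm6 keep their direction in every probe set drawn, and Cdc45 and Slbp have probe sets far apart.

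Among threat animals, animals 5 and 6 stood apart. In 25 of the 43 tested members (58.1%) both read below each of the other 4 threat animals, which was so in 9.64% of all genes tested, a pattern noticed in these data and given without a test. It crossed the direction of change. It held for 9 of the 12 members that rose and for 5 of the 10 that fell. Rrm2 was closest to the pools in animals 5 and 6 (6.22 and 6.19), and so was Mcm5 (6.07 and 6.08). Mcm6 and Cdt1 were farthest from the pools in the same animals, at 5.76 and 5.83 for Mcm6 and 6.40 and 6.28 for Cdt1. Mcm7, which did not pass, read 6.32 in both and from 6.66 to 6.95 in the other 4, with pools at 6.66 to 6.76.

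The mean of the 43 members was 5.222, 5.135, 5.096, 5.077, 4.918 and 4.929 in threat animals 1 to 6 and 5.058, 4.995 and 4.957 in the pools, so that animals 5 and 6 lay below all pools and the other 4 above them. Without animals 5 and 6, an alternative chosen after the data were seen, 15 members rose and 7 fell, and 25 did not overlap between groups. Fewer threat arrays make overlap less likely for every gene. The share of all genes in that setting is not given, so these counts show nothing particular to the members. The median SD of a member was 0.151 among threat animals and 0.0872 among pools of 2. The mitosis genes described below were lower in animals 5 and 6 as well (mean level 4.82 and 4.85, against 5.14 to 5.44 in the other 4). So was the granulocyte list (9.66 and 9.69, against 9.94 to 10.12 in the other 4), and so was the B cell list (4.60 and 4.59, against 4.78 to 4.93). The progenitor list was lower too (4.76 and 4.71, against 4.85 to 4.92). The remaining cell type lists described below were not lower in both animals. The CD11b+ myeloid list read 10.26 and 10.25 (against 10.23 to 10.25), and the natural killer list 3.76 and 3.9 (against 3.73 to 3.9). Among the pools, pool 5-6 likewise had the lowest mean of the members. It was also the lowest pool for the mitosis genes (4.13, against 4.31 and 4.22) and the granulocyte list (8.3, against 8.46 and 8.35). For the B cell list pool 3-4 was lowest (6.5, against 6.72 and 6.58). The part of these arrays and lists in the result was not tested.

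**Figure D4:**
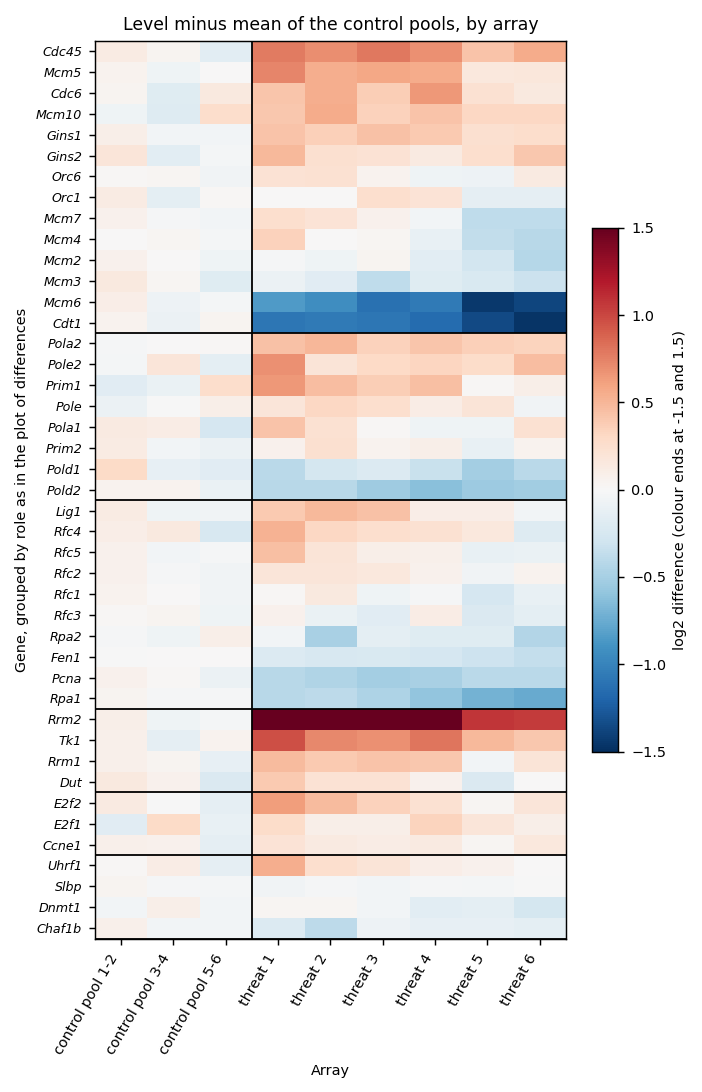
Level of each tested member (rows, grouped by role) in each array (columns) minus the mean of the control pools, as colour on a log2 scale whose ends, at -1.5 and 1.5, are passed by Rrm2. The columns of threat animals 5 and 6 are lower than those of animals 1 to 4 in 25 of 43 rows, in rows that are red as in rows that are blue.

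Other genes of the pathway, listed by role and likewise chosen with earlier results known, also went both ways. So did all genes tested, of which 23.8% rose and 22.0% fell. No list below was tested against these shares. Of 27 tested replication genes outside the list above, 8 rose and 5 fell, with a median of 0.05. The ribonuclease subunit Rnaseh2c rose by 0.72 (SE 0.0891), and Pole4, a small subunit of polymerase epsilon, differed by -0.79 (SE 0.0631). Geminin (Gmnn), the inhibitor of Cdt1, rose by 0.58 (SE 0.13, adjusted p = 0.00258). A link between this rise and the fall of Cdt1 was not tested.

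Of 14 further genes of nucleotide synthesis, 2 rose and 7 fell, with a median of -0.20. The mitochondrial folate enzyme Shmt2 differed by -0.89 (SE 0.108), and the deoxynucleotide hydrolase Samhd1 rose by 0.33 (SE 0.045). Of 9 further chromatin genes, 1 rose (the histone chaperone Asf1b, by 0.39) and 6 fell, among them the histone-binding protein Rbbp7 (difference -0.82, SE 0.0457).

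Of 26 further regulators of the G1 to S step, 9 rose and 8 fell, with a median of 0.08. Cyclin A2 (Ccna2), which drives S phase, rose by 1.33 (SE 0.127, adjusted p = 2.74e-06). Cyclin D2 (Ccnd2) differed by -1.5 (SE 0.0806, adjusted p = 1.74e-08) and Ccnd1 by -0.90, while Ccnd3 rose by 0.74. The repressor E2f8 rose by 0.89. E2f7, another repressor, was called higher, but its control mean of 2.39 lay under the filter value and it was tested only through its threat values (mean 3.26). Myc differed by -1.01. Gmnn, Ccnd1, Ccnd3, E2f7, E2f8 and Myc were picked out after their values were seen. Among mitosis genes 31 of 33 rose, with a median of 0.95, and Ube2c, which tags proteins for destruction in mitosis, rose by 1.73 (SE 0.143). Cenpa, the histone of centromeres, was the 1 that fell (difference -0.58, SE 0.118). Of the 31, Anln and Ect2 had control means under the filter value (2.43 and 2.3) and were tested only through their threat values.

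**Figure D5:**
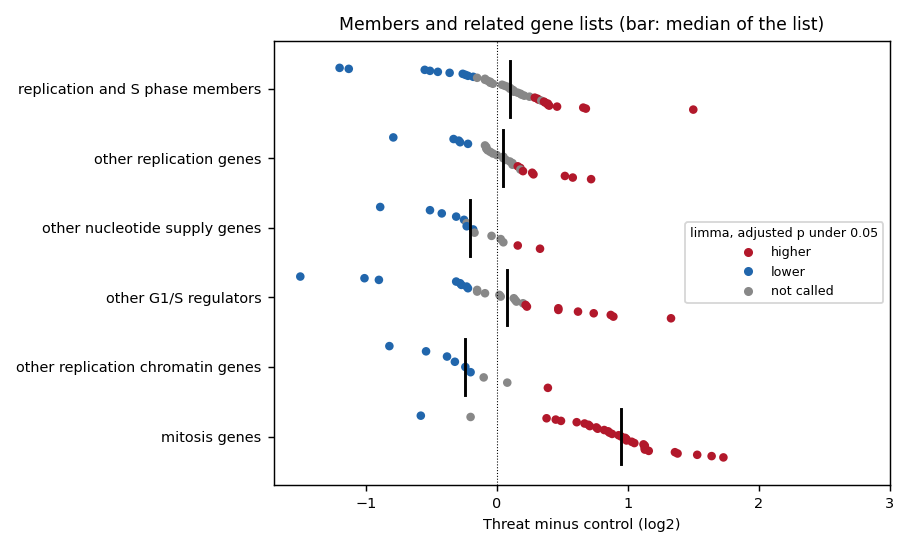
Difference between threat and control (log2, horizontal axis) for each tested gene of the members and of 5 related lists (rows), with limma's call as colour and a bar at the median of each list. The median of the members is 0.10 and that of the mitosis genes 0.95.

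The cells carried the markers of the sort, but not only those. Itgam, the gene of CD11b, had means of 7.93 in control and 8.5 in threat. The B cell gene Cd79a had means of 8.88 and 6.57. All 10 CD11b+ myeloid genes listed were tested, none read under 5.01 in any array, and 9 rose, by 0.12 for the lysozyme gene Lyz2 and by 0.83 for the antibody receptor gene Fcgr1. Markers of other cells moved with the groups. Of 15 tested genes of granulocytes and their precursors 14 rose, and the mean level of the list went from between 8.3 and 8.46 in pools to between 9.66 and 10.12 in threat animals. The calprotectin subunit S100a9 rose by 0.47 (SE 0.0432) and Prtn3, a granule protease of young granulocytes, by 3.48 (SE 0.153).

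Lymphoid and dendritic markers were lower. Of 13 B cell genes 12 fell, and the mean level of the list went from 6.5 to 6.72 in pools to 4.59 to 4.93 in threat animals, with differences of -2.31 for the B cell receptor subunit Cd79a and -2.59 for the factor Ebf1. Of 10 natural killer cell genes 9 fell (5.42 to 5.55 in pools, 3.73 to 3.9 in threat animals), with Klrd1 at -1.52 and the granzyme Gzma at -3.11. Tbx21, 1 of the 9, had a threat mean under the filter value (2.19) and was tested only through its control values. Of 9 dendritic cell genes 8 fell (5.91 to 6.0, then 4.99 to 5.04), with Itgax at -1.01 and Cd209a at -2.16. Of 8 T cell genes 4 fell (4.4 to 4.45, then 4.1 to 4.19), among them Cd5 at -0.96, while Zap70 differed by 0.09 and did not pass.

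Other lists were mixed. Of 8 erythroid genes 1 rose and 2 fell (4.32 to 4.49 in pools, 4.06 to 4.19 in threat animals), with a median of -0.01. Car2 (-1.34) and Tfrc (-1.23) fell, and Klf1 rose by 0.18. Of 8 progenitor genes 2 rose, Cd93 by 0.56 and Prom1 by 1.04, and 5 fell (4.88 to 4.97, then 4.71 to 4.92). The 5, named after their values were seen, were Myb (-0.90), Kit (-0.65), Flt3 (-0.51), Sox4 (-0.18) and Gata2 (-0.17). Of 9 platelet genes 5 rose, among them Ppbp by 0.58 and Gp1bb by 1.23, and 1, Itgb3 (-0.46), fell (4.39 to 4.49, then 4.66 to 4.72). Of 10 genes of germinal centre B cells and plasma cells 2 rose and 5 fell (7.47 to 7.59, then 6.92 to 7.04). Fas rose by 0.64 and Sdc1 by 0.29, and the falls included Xbp1 (-0.47) and Irf4 (-2.2). Of 14 macrophage genes 1 rose, Slc40a1 by 0.28, and 8 fell (6.44 to 6.55, then 6.09 to 6.18), among them Hmox1 (-0.20) and Timd4 (-1.19). Tfrc, Klf1, Itgb3, Fas, Sdc1 and Slc40a1 were likewise named after their values were seen. No tested marker of these lists read under 2.01 in any array. Their part in the changes of the replication genes was not tested.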

How the data were processed

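The authors deposited log2 values that, per the submitters' processing notes, came from RMA. Its version and settings were not given in the sources used here, nor was the log base, which was taken from the values. RMA corrects background and normalizes between arrays. Array medians lay between 3.189 and 3.224, and the number of arrays limits precision. Probe sets were named from the platform's table, and symbols were renewed by Entrez number against RefSeq (GRCm38.p6): 34945 name 1 gene, 932 several and 9160 none here. Genes entered the test when the mean of their brightest probe set reached the 40th percentile over probe sets, controls left out, which kept 13078 genes.

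Threat minus control was fitted with limma 3.58.1 in R 4.3.3 (lmFit, eBayes, two-sided, Benjamini-Hochberg over the 13078 genes), with a script tested on simulated data. Intervals are limma's 95% intervals. Alternatives changed the filter, the choice of probe set, the scaling, the model and the arrays left out. Pool values and the spread of the threat values are given for 8 preset members, with every threat value for Rrm2. In each role they are also given for the largest called rise and fall, the smallest p and the highest mean. Each pathway list is shown by its largest called rise and fall, and each cell type list by its highest mean and largest called difference. Members and lists were chosen with earlier results of these data known.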

Additional observations from a re-analysis of the deposited data

Results flagged for a closer look

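Chaf1b in threat animal 2 (4.15) lay below the other 5 threat animals, which read from 4.34 to 4.46. It was the only flag among the 43 members by Dixon's ratio of gap to range, and chance flags about 1 in 20 groups.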

How the results depend on the processing

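Of 978 single-member values under 23 alternatives, 852 kept direction and side of the threshold, 80 lost the call, 29 gained it and 17 changed sign. With 1 array left out, 9 to 16 members rose, 6 to 9 fell and 16 to 19 did not overlap; by role the rises ran from 4 to 6 in licensing, 2 to 4 in polymerase, 0 to 2 in clamp, 2 to 3 in nucleotide supply and 0 to 1 in regulator genes, and the falls from 2 to 3, 1 to 2, 3 to 4, 0 and 0, with 0 to 1 in chromatin genes. The treat test at 1.2-fold left 3 rises and 5 falls: 1 rise in licensing genes, 0 in polymerase and regulator genes, and 1 fall in polymerase, 2 in clamp and 0 in chromatin genes. Polymerase genes held 1 rise with probe sets averaged or the most variable probe set, 4 rises with median centring, estimated array weights or without threat animals 5 and 6, and 1 fall at the 60th percentile or with specific probe sets preferred. Clamp genes held 1 rise with the mean of probe sets, specific probe sets, quantile normalization or the replicate block, 3 with the most variable probe set and 2 without threat animals 5 and 6. Regulator genes held 2 rises with the mean of probe sets, specific probe sets, the most variable probe set or median centring, and 0 with estimated array weights or threat animals averaged in number pairs. Chromatin genes held 1 rise with the mean of probe sets. They held 0 falls with that mean, no filter, specific probe sets, median centring or limma's trend and robust setting. The same held with number pairs averaged, the replicate block, or without threat animals 5 and 6. That last setting also left 25 members without overlap, with the share of all genes not given. Signs changed with specific probe sets for Mcm4 (0.07), Mcm10 (-0.10) and Rfc3 (0.36), with the most variable probe set for Mcm7 (0.00), Rfc1 (0.24), Rfc3 (0.36) and Dnmt1 (0.09), with the mean of probe sets for Rfc1 (0.07), Rfc3 (0.14) and Dnmt1 (0.04), and without threat animals 5 and 6 for Mcm4 (0.06), Mcm7 (0.12) and Rfc1 (0.02). With 1 array left out Orc1 ran from -0.04 to 0.10 and Mcm7 from -0.11 to 0.02. Causes were not tested. With number pairs as a replicate block, 13 members rose and 8 fell. Deviations of same-numbered arrays from their group means, over all genes tested, correlated at 0.149, -0.152 and -0.029. With 3 pools these values cannot show whether same-numbered arrays share more than a number, and no label pairs them. With each probe set on its own, 17 members had a rise and 9 a fall in at least 1. The filter value of 2.658 is a percentile, and no background signal was measured, so how far dim signals limit these values is unknown.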
